A study of Rattus norvegicus with 8 samples.

Results

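The genes described here are those whose abundance was at or below 50% of the lower control in every tumour that received rapamycin. They were chosen from the measured values. The lower of the 2 control tumours had to reach 2 TPM (abundance corrected for gene length and scaled to the same sum in each library), and the highest of the 6 treated tumours could be at most 50% of it. Of 23918 genes in the table, 11101 had a lower control of at least 2 TPM and 55 of these (0.495%) met the threshold. The rule leaves out 1 of the 55 by its identifier. It also bars genes lost in rapamycin replicate 2 alone, but only where all other tumours reach 10 TPM. This clause removed 0 of the 55, and 54 genes remained. Where any other tumour was below 10 TPM the clause did not apply. The 54 therefore still include weaker genes that were far lower in rapamycin replicate 2 than in any other tumour. Because all 8 libraries entered the rule, the distance between treated and control tumours is a description of these genes and carries no test here.

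RNA was sequenced from tumours that ELT3-V3 cells formed after subcutaneous injection into NOD-scid mice, females aged 6 weeks, with 2 tumours in each of 4 groups. ELT3 is a single rat uterine leiomyoma line that has lost tuberin, and NOD-scid mice lack mature T and B lymphocytes. Mice were randomized when tumours measured 150 to 200 mm3. Control tumours received the vehicle, carboxymethylcellulose with Tween-80. The second group received rapamycin at 0.25 mg/kg per day. The third received rapamycin and, per day, 10 mg/kg of clorgyline, and the fourth rapamycin and 1 mg/kg of rasagiline. The rapamycin dose is stated for the group given it alone and not again for the combinations. Nothing says that each tumour grew in a different mouse, so the p-values rest on the spread among these tumours alone. Over the 13686 genes tested below, rapamycin replicate 2 stood furthest from the other libraries, at a mean root mean square distance of 0.78 log2 units against 0.59 to 0.66 for each other library.

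Tuberin is part of the complex that switches off mTORC1, the kinase complex that drives protein, lipid and nucleotide synthesis when nutrients and growth factors are plentiful. Cells without tuberin keep mTORC1 active, and rapamycin inhibits it by binding the protein FKBP12. Many transcription factors act downstream of mTORC1, so the abundance of their targets can fall when it is inhibited. Clorgyline and rasagiline are propargylamines that inhibit monoamine oxidase irreversibly, clorgyline mainly its A form and rasagiline mainly its B form. The table gives Ensembl identifiers without gene names, and 0 of 23918 identifiers were found in the RefSeq rat gene table used here. The genes are therefore told apart by their rank from 1 (highest mean control TPM) to 54, and 2 are named by identifier. For the same reason the leiomyoma label could not be set against smooth muscle markers, and markers of mouse host cells could not be read. In bulk tumours, fewer cells of a type and less RNA per cell cannot be told apart.

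The 54 genes covered a wide range of abundance. Mean control TPM ran from 2.35 to 359 with a median of 16.1, against a median of 20.9 TPM for all 11101 genes with a lower control of at least 2 TPM. In 31 genes the mean control was below 20 TPM and in 7 it was at least 100 TPM. Rows meeting the rule made up 0.732% of the genes whose lower control lay between 2 and 5 TPM (12 of 1640), 0.487% between 5 and 20 TPM (20 of 4111), 0.404% between 20 and 100 TPM (16 of 3960) and 0.432% from 100 TPM upwards (6 of 1390). The share was thus highest among the weakest genes.

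**Figure D1:**
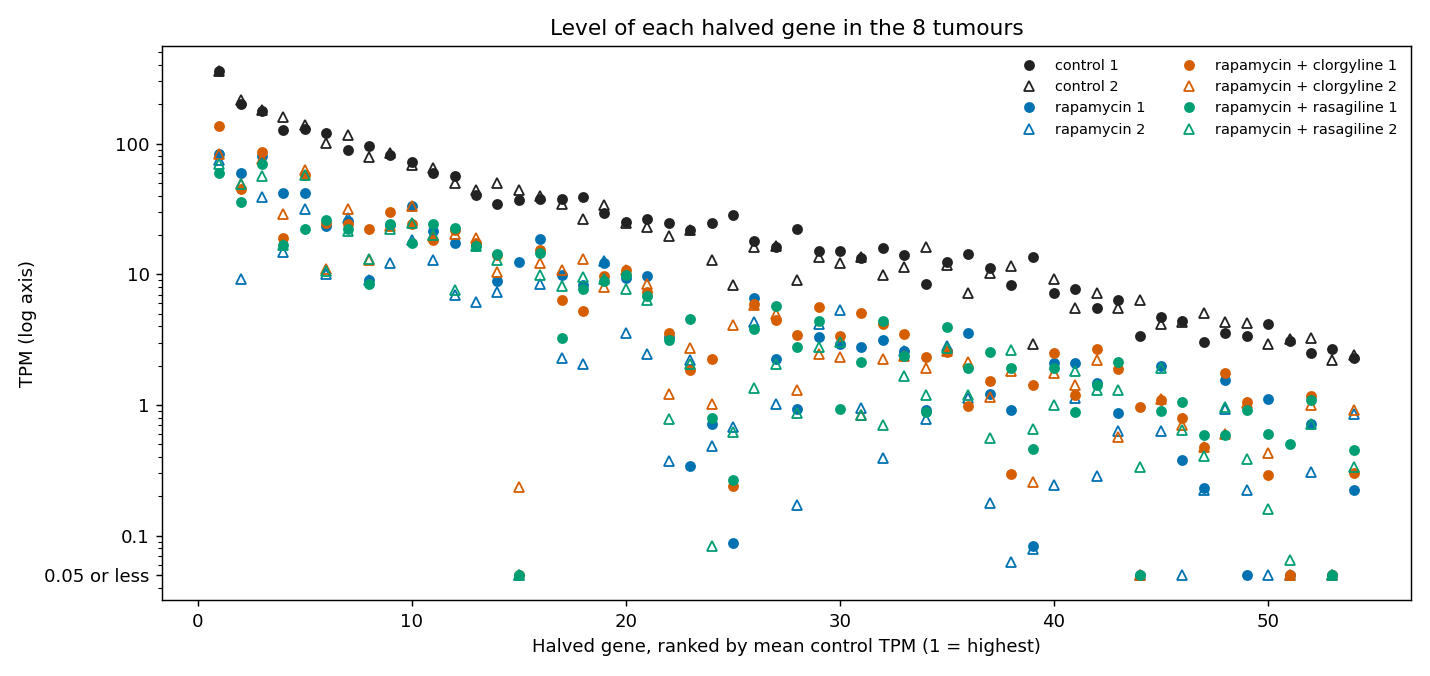
TPM of the 54 genes in the 8 tumours on a log axis, ordered by mean control TPM, with circles for replicate 1 and triangles for replicate 2 of each group. Values of 0.05 TPM or less are drawn at the bottom. The black control symbols lie above all coloured symbols in every gene, as the rule requires, and the treated symbols of several weaker genes spread over more than 1 step of 10.

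Summed over the 54 genes, the 2 controls held 2247 and 2240 TPM. The rapamycin tumours held 620 and 346 TPM, the clorgyline combination 666 and 602 TPM, and the rasagiline combination 493 and 488 TPM. These sums were 0.225% and 0.224% of the control libraries and 0.0346% to 0.0666% of the treated ones. The 8 most abundant genes carried 59.2% of the control sum, so the sums mostly follow those 8.

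The gene with the highest control level, ENSRNOG00000057620, stood at 358 and 360 TPM in the controls. It was listed at 83.9 and 75.8 TPM with rapamycin, 137 and 83.9 TPM with rapamycin and clorgyline, and 59.7 and 69.8 TPM with rapamycin and rasagiline. The controls were nearly equal, the highest treated value was 38.2% of the lower control, and the single highest treated tumour was clorgyline combination replicate 1. Its group means were 359 ± 1.29, 79.9 ± 5.73, 110.3 ± 37.4 and 64.8 ± 7.14 TPM (SD, n = 2 each) in the same order.

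The gene ranked 2 stood at 202 and 217 TPM in the controls. It was at 59.9 and 9.26 TPM with rapamycin, 44.9 and 49.2 TPM with clorgyline added, and 36.1 and 48.9 TPM with rasagiline added. 5 of the 6 treated tumours thus lay close together and rapamycin replicate 2 lay far below them. That value was only just high enough for the gene to be kept, since a level in rapamycin replicate 2 below 25% of the next lowest treated tumour would have removed it. With rasagiline combination replicate 1 left out of the rule, this was the 1 gene of the 54 not chosen.

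The genes ranked 3 and 5 stayed highest in relative terms among the abundant ones. The gene ranked 3 was at 179 and 181 TPM in controls and between 39.4 and 87.3 TPM in treated tumours, and the gene ranked 5 at 130 and 140 TPM against 22.1 to 63.5 TPM. The highest treated value was 48.8% and 48.7% of the lower control. Both lay just inside the threshold.

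The gene ranked 4 was at 129 and 159 TPM in controls. It was at 42.3 and 14.9 TPM with rapamycin, 18.9 and 28.9 TPM with clorgyline added and 16.7 and 16.8 TPM with rasagiline added. Rapamycin replicate 1 was the highest treated tumour here. The gene ranked 6 was at 121 and 101 TPM in controls, 23.4 and 10.0 TPM with rapamycin, 24.6 and 10.9 TPM with clorgyline added, and 26.1 and 10.5 TPM with rasagiline added. Each treated group of this gene therefore held 1 tumour near 25 TPM and 1 near 10 TPM, so the 3 group means were alike while the tumours within a group were not.

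The gene ranked 7 had the narrowest range among treated tumours of any gene with no value of 0, from 21.3 to 31.8 TPM (1.49-fold), against 89.2 and 117 TPM in controls. The gene ranked 8 was at 96.1 and 78.9 TPM in controls and between 8.41 and 22.4 TPM in treated tumours, with the highest value in clorgyline combination replicate 1. Its rapamycin tumours were nearly equal at 8.99 and 9.04 TPM.

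Several genes of lower abundance were furthest below their controls. In 8 of the 54 the highest treated tumour was at 25% of the lower control or less. ENSRNOG00000048953, ranked 24, was at 24.6 and 13.0 TPM in controls and at 0.713 and 0.486 TPM with rapamycin. It was at 2.27 and 1.03 TPM with clorgyline added and at 0.790 and 0.0834 TPM with rasagiline added. Its highest treated value was 17.5% of the lower control, the smallest share among genes whose lower control was at least 5 TPM. Its controls differed 1.89-fold, so the size of the drop depends on which control is used.

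The gene ranked 22 was at 24.6 and 19.9 TPM in controls, 3.34 and 0.375 TPM with rapamycin, 3.56 and 1.22 TPM with clorgyline added and 3.17 and 0.786 TPM with rasagiline added. The gene ranked 23 was at 21.7 and 21.8 TPM in controls, 0.340 and 2.23 TPM with rapamycin, 1.85 and 2.71 TPM with clorgyline added and 4.52 and 2.06 TPM with rasagiline added. Both were therefore near 20 TPM in controls and at 4.52 TPM or less in all treated tumours. They differed in which treated tumour was lowest, rapamycin replicate 2 for the former and rapamycin replicate 1 for the latter.

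Among the treated tumours, 7 genes were listed at exactly 0 in at least 1, and 1 of these, ranked 53, was listed at 0 in all 6 with 2.67 and 2.21 TPM in controls. Without depth, a value of 0 has no detection limit. The gene ranked 51 was at 3.10 and 3.22 TPM in controls, listed at 0 in 3 treated tumours, and at most 0.507 TPM in the others. The gene ranked 44 was at 3.35 and 6.38 TPM in controls and listed at 0 in 4 treated tumours, with 0.960 TPM in clorgyline combination replicate 1 and 0.337 TPM in rasagiline combination replicate 2. The remaining genes with a 0, apart from the gene ranked 15, had control values between 2.92 and 4.40 TPM.

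The gene ranked 15 had a pattern of its own. Its controls were at 37.5 and 44.3 TPM and rapamycin replicate 1 was at 12.5 TPM. It was listed at 0 in rapamycin replicate 2, and clorgyline combination replicate 2 was the next highest treated tumour at 0.237 TPM. The remaining 3 tumours had values of about 0.0002 TPM or less. The 2 rapamycin tumours of this gene therefore lay further apart than the tumours of either combination, and rapamycin replicate 1 alone set its place relative to the threshold. Whether its reads are shared with a similar gene was not tested.

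**Figure D2:**
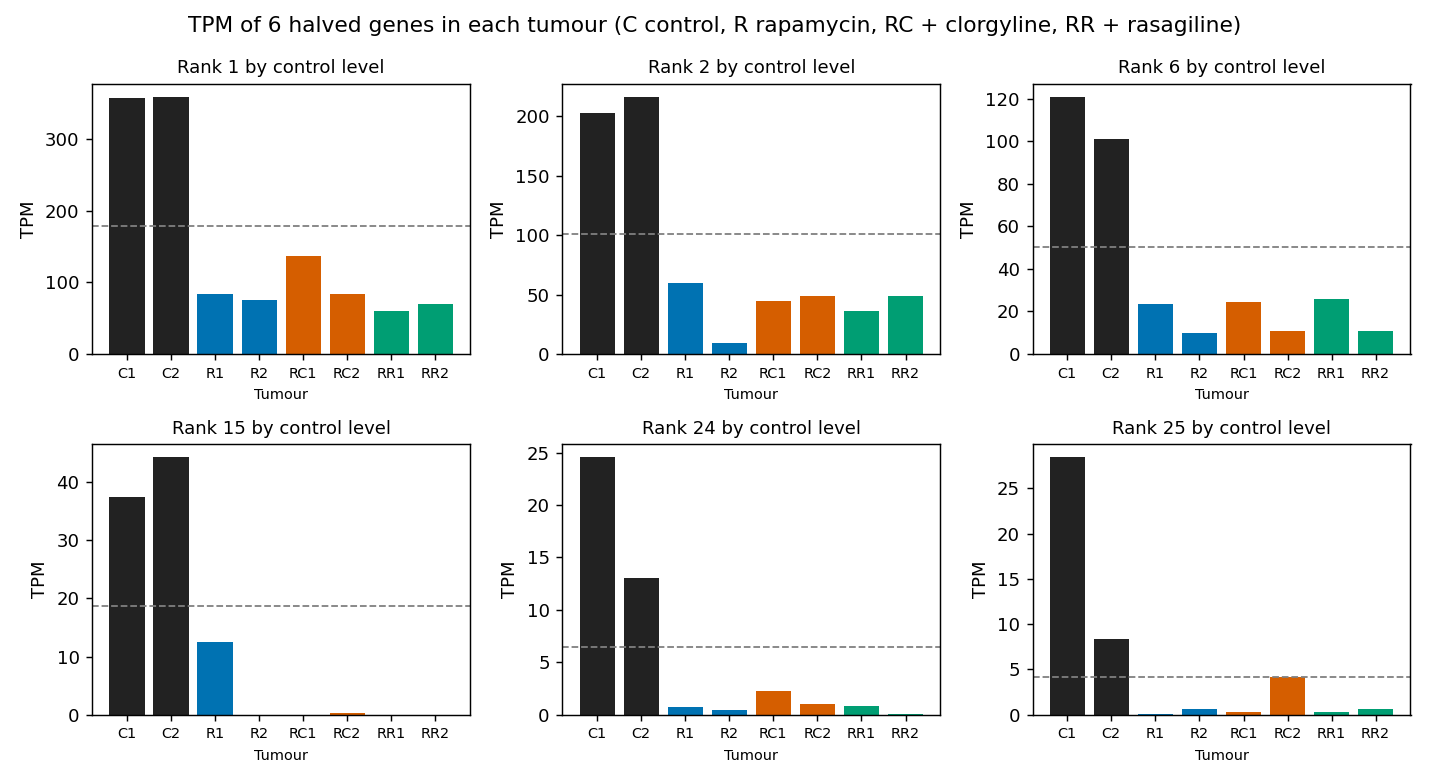
TPM in each tumour for the genes ranked 1, 2, 6, 15, 24 and 25 by control level, on linear axes that start at 0. The dashed line is 50% of the lower control, which no treated tumour exceeds. The gene ranked 15 shows 1 treated tumour at 12.5 TPM and the others at 0.237 TPM or less.

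The controls of the 54 genes agreed about as closely as those of other genes. The higher control was a median of 1.19 times the lower, against 1.17 times over the 11101 genes. The controls differed by more than 1.5-fold in 9 of the 54 genes (16.7%), against 10.1% of the 11101. In 3 genes they differed by more than 2-fold. The gene ranked 25 was at 28.4 and 8.36 TPM, the gene ranked 28 at 22.2 and 9.14 TPM, and the gene ranked 39 at 13.5 and 2.94 TPM, each higher in control replicate 1. For the gene ranked 25 the treated tumours lay between 0.0886 and 0.676 TPM apart from clorgyline combination replicate 2 at 4.11 TPM.

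Close to the threshold, counting genes with a lower control of at least 10 TPM, the 3 just inside had a highest treated value of 49.5%, 49.5% and 48.8% of the lower control. The 3 just outside were at 50.4%, 50.7% and 50.8%. In 14 of the 54 genes the share was over 45%. The boundary of the set is thus drawn through values that differ by less than the replicates do.

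Treated tumours differed from each other in these genes. The median level relative to the control mean was 23.4% and 10.3% in the rapamycin tumours, 24.6% and 21.3% in the clorgyline combination, and 20.5% and 14.8% in the rasagiline combination. Over all 11101 genes the same median lay between 94.4% and 109% in the treated tumours. Rapamycin replicate 2 was the lowest treated tumour in 30 of the 54 genes (55.6%), against 33.9% of the 11101. In 12 genes the next lowest treated tumour was more than 3 times the lowest, and in 9 of these the lowest was rapamycin replicate 2. Leaving that library out of the rule gave 59 genes, which included all 54.

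**Figure D3:**
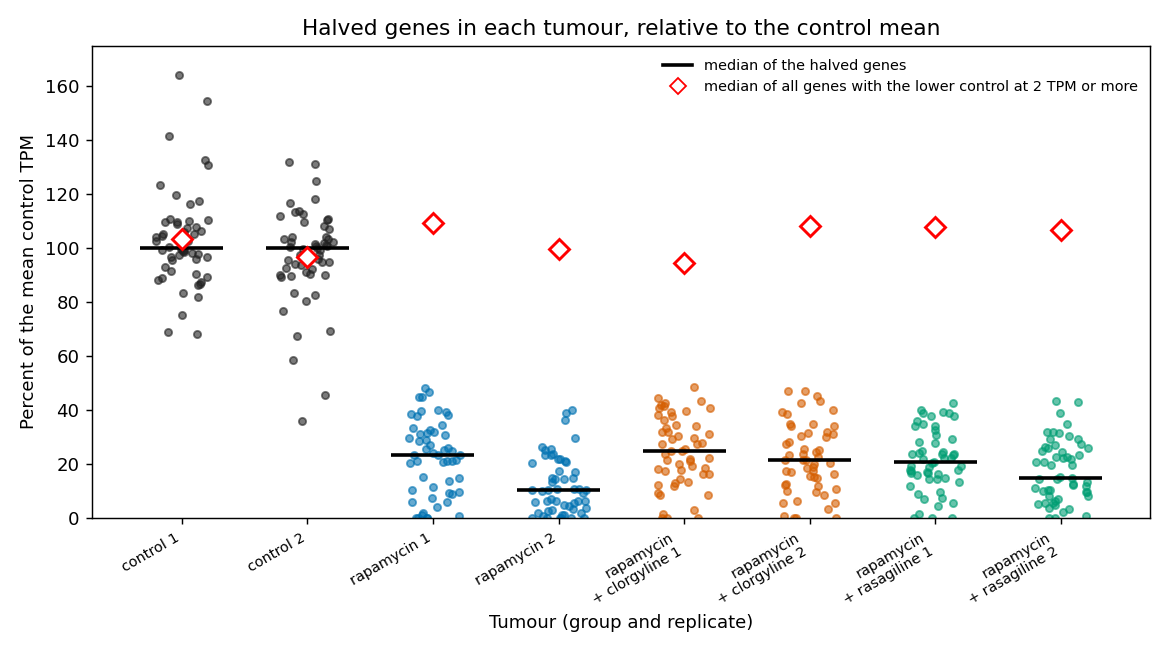
Level of each of the 54 genes as a percent of its mean control TPM, by tumour, with a black line at their median and a red diamond at the median of all 11101 genes with a lower control of at least 2 TPM. The black lines of the treated tumours lie between 10.3% and 24.6%, with rapamycin replicate 2 lowest, while the red diamonds lie between 94.4% and 109%.

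Clorgyline combination replicate 1 stood out in the opposite way. It was the highest treated tumour in 18 of the 54 genes (33.3%) and the lowest in 2 (3.70%). Over the 11101 genes it was the highest in 6.31% and the lowest in 36.7%. Its median over all those genes was 94.4% of the control mean, the lowest of the treated tumours. It therefore ranked low among treated tumours for genes in general and high for the set.

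Replicates of a treated group also lay further apart in these genes than in others. The median difference between the 2 tumours of a group on the log2(TPM + 1) scale was 0.69 for rapamycin, 0.35 for the clorgyline combination and 0.41 for the rasagiline combination. Over the 11101 genes it was 0.33, 0.25 and 0.18. In the controls it was 0.22 against 0.21. The 11101 genes were not matched to the set for level in treated tumours, where the set was low. Whether the lower level accounts for the wider gaps was not tested. Across the 6 treated tumours, the 1378 pairs of the 53 genes that varied had a median correlation of 0.286, against 0.121 for pairs of the 11101 genes. These pairs share the same 6 libraries, so this describes the set and is no test of shared control.

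**Figure D4:**
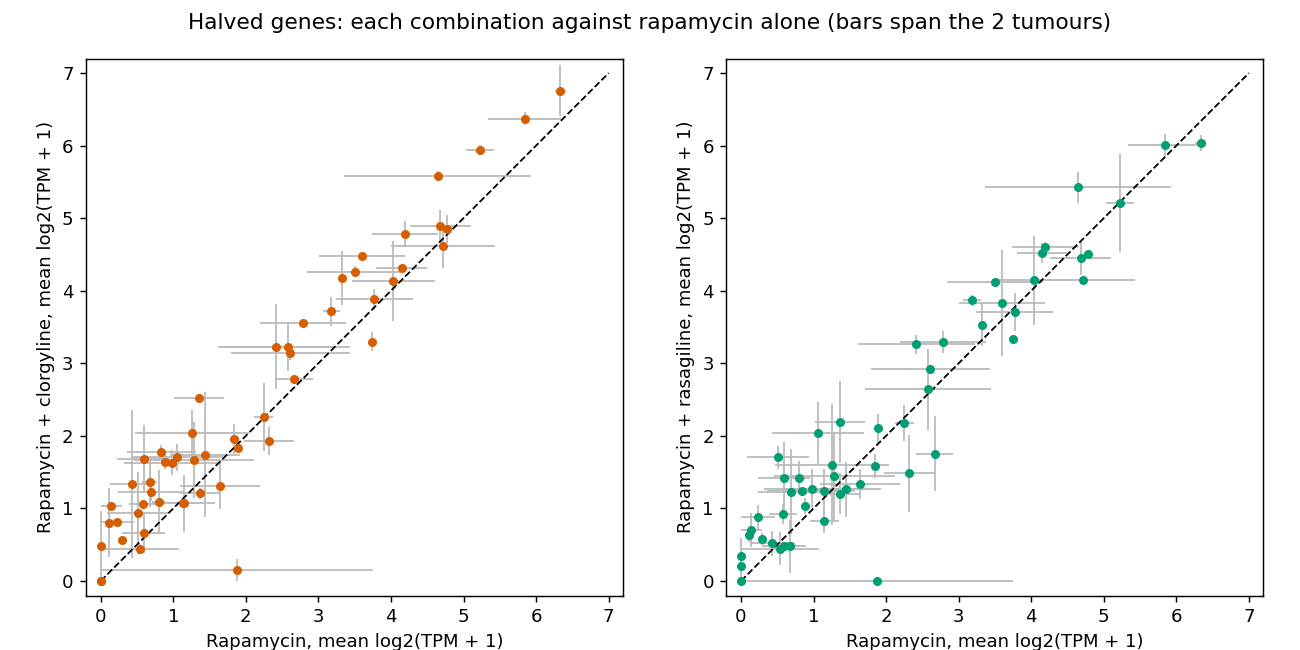
Mean log2(TPM + 1) of the 54 genes with rapamycin alone (x axis) and with each combination (y axis). Bars reach from 1 tumour of the group to the other, and the dashed line marks equal levels. With clorgyline 42 points lie above the line, and with rasagiline 34 do.

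The comparisons between treated groups ask whether adding either inhibitor to rapamycin moved these genes further down or back towards control. Group differences did not choose the genes, but the rule is not independent of them. It caps all 6 treated values of a gene at the same level. Its clause on rapamycin replicate 2 also bounds how far that tumour can lie below the others where all other tumours reach 10 TPM. That clause removed 0 of the 55 genes here. The limma fit covered all 13686 genes with at least 1 TPM in at least 2 libraries, and p-values were adjusted over all of them by the Benjamini-Hochberg method. The 54 genes all passed this filter, which their controls alone ensure. In treated tumours 5 of them were below 1 TPM throughout, 1 of these at 0 in all 6. A count of 0 calls is thus partly set by how the genes were chosen. It does not show that the treated groups were alike, and the shares over all genes come from genes not chosen this way.

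Between the clorgyline combination and rapamycin, 0 of the 54 genes had an adjusted p below 0.05 in limma (0.00% of all genes were called), and 5 had an unadjusted p below 0.05, which is 9.26% of them against 7.61% of all genes. The smallest limma adjusted p was 0.578. The log2 difference was above 0 in 42 of the 54 and in 47.0% of all genes tested, with a median of 0.45 against -0.02. That lean moved with the rapamycin or clorgyline combination tumour left out, and so did the values over all genes. Without rapamycin replicate 2, 29 genes were above 0 with a median of 0.05, against 37.9% and -0.09 over all genes. Without rapamycin replicate 1, 47 were above 0 with a median of 0.66, against 53.2% and 0.04 over all genes. Leaving out clorgyline combination replicate 1 gave 35 above 0 and a median of 0.34, against 56.2% and 0.05 over all genes. Leaving out its replicate 2 gave 38 above 0 and a median of 0.51, against 37.8% and -0.12 over all genes. The 95% interval stayed within 1 log2 unit of 0 in 17 of the 54 genes (31.5%), against 64.0% of all genes. Of these 17, 4 were below 1 TPM in all 6 treated tumours, where a difference of 1 unit on the log2(TPM + 1) scale cannot arise. The interval of the other 37 reached beyond a 2-fold change.

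Between the rasagiline combination and rapamycin, 0 of the 54 genes were called in limma (0.0146% of all genes were), and 3 had an unadjusted p below 0.05, which is 5.56% against 5.81% of all genes. The smallest limma adjusted p was 0.752. The log2 difference was above 0 in 34 genes and below 0 in 19, while 57.4% of all genes were above 0, and the median was 0.19 against 0.05 over all genes. The median was -0.01 after quantile normalization (-0.04 over all genes) and -0.15 without rapamycin replicate 2 (-0.003 over all genes). Its direction was thus not fixed by these data. The interval stayed within 1 log2 unit of 0 in 18 of the 54 genes (33.3%), of which 3 were below 1 TPM in all treated tumours, against 66.6% of all genes.

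Calls between treated groups appeared when a rapamycin tumour was left out, where the spread of the remaining one was taken from the other groups. Without rapamycin replicate 1 such calls also arose among genes outside the set. The genes ranked 2, 3, 13, 20 and 21 were then higher with clorgyline than in rapamycin replicate 2, by 1.04 to 2.23 log2 units. Those ranked 2 and 13 were also higher with rasagiline, by 2.07 and 1.28 log2 units. Over all genes the median log2 difference was then 0.04 with clorgyline and 0.11 with rasagiline, against 0.66 and 0.43 over the set. Without rapamycin replicate 2, the gene ranked 15 was lower with clorgyline (log2 difference -3.60) and with rasagiline (-3.75). Few genes outside the set were called then, and the medians over all genes were -0.09 and -0.003. Each of these calls sets a single rapamycin tumour against the combinations and tests those tumours, not the treatments.

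Clorgyline and rasagiline were given at doses that differ, 10 and 1 mg/kg per day, so the comparison of the combinations is not one of matched doses. Here too 0 of the 54 genes were called in limma (0.0219% of all genes were), and 2 had an unadjusted p below 0.05 (3.70%, against 4.60% of all genes). The smallest limma adjusted p was 0.919, that of ENSRNOG00000057620. For this gene the rasagiline combination minus the clorgyline combination was -0.72 on the log2 scale (95% interval -1.27 to -0.18). For ENSRNOG00000048953 it was -0.89 (95% interval -1.86 to 0.08; limma adjusted p = 0.997).

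Over the set, 37 of the 54 genes were lower with rasagiline than with clorgyline and 16 were higher, with a median log2 difference of -0.20. Over all genes tested the median was 0.09 and 64.6% were higher with rasagiline. The set's median was -0.30 after median rescaling (-0.01 over all genes) and -0.31 after quantile normalization (0.005 over all genes). It lay between -0.24 and -0.10 when single libraries were left out. The split was 31 lower and 22 higher without rasagiline combination replicate 2, and 41 and 12 without its replicate 1. Without clorgyline combination replicate 1 it was 33 and 20, and over all genes the median was then 0.003 with 50.5% higher. The contrast with all genes thus rests in part on single tumours. The interval stayed within 1 log2 unit of 0 in 16 of the 54 genes (29.6%), of which 3 were below 1 TPM in all treated tumours, against 67.7% of all genes. By group mean, the clorgyline combination was the highest treated group in 33 genes (61.1%), the rasagiline combination in 12 (22.2%) and rapamycin alone in 8 (14.8%), with 1 tie at 0. Over the 11101 genes these shares were 25.8%, 35.4% and 38.9%. Rapamycin alone was the lowest in 31 genes (57.4%, against 35.3%), and its replicate 2 was by itself the lowest treated tumour in 30. No gene of the set passed the limma test for any of these differences with all libraries kept.

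The rule was then applied to 7 libraries and read in the library left out, as a description with no test. For a treated tumour, the genes that hold in it are by construction among the 54, so the share only says how many genes that library removed from the choice. Without rapamycin replicate 1, 62 genes were chosen and 54 of them (87.1%) were also at or below 50% of the lower control in it. The share was 91.5% for rapamycin replicate 2 (54 of 59), 74.0% and 80.6% for clorgyline combination replicates 1 and 2 (54 of 73 and 54 of 67), and 84.1% and 87.1% for rasagiline combination replicates 1 and 2 (53 of 63 and 54 of 62). Over all 11101 genes the same share was 2.75%, 8.25%, 2.39%, 2.15%, 2.68% and 2.92%. The treated tumour left out was compared with the same controls that entered the choice, so these shares lean on the controls.

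The controls were left out in the same way. With control replicate 2 as the only control, 95 genes were chosen, and control replicate 1 was at least 2 times the highest treated tumour in 57 of them (60.0%). With control replicate 1 as the only control, 142 genes were chosen, and control replicate 2 held in 61 (43.0%). The 3 and 7 genes that held beyond the 54 had less than 2 TPM in the left-out control. Over all genes chosen, the left-out control stood at a median of 84.6% and 64.9% of the other control. Over all genes whose remaining control reached 2 TPM the shares were 0.953% and 0.723%. In 79 of the 95 (83.2%) and 117 of the 142 (82.4%) the left-out control was above all 6 treated tumours. By this looser check the shares over all genes whose remaining control reached 2 TPM were 19.8% and 14.5%. The left-out control was compared with the same 6 treated tumours that entered the choice. The shares over all genes come from genes not chosen for low treated values. Both checks on the controls thus lean on the treated tumours.

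**Figure D5:**
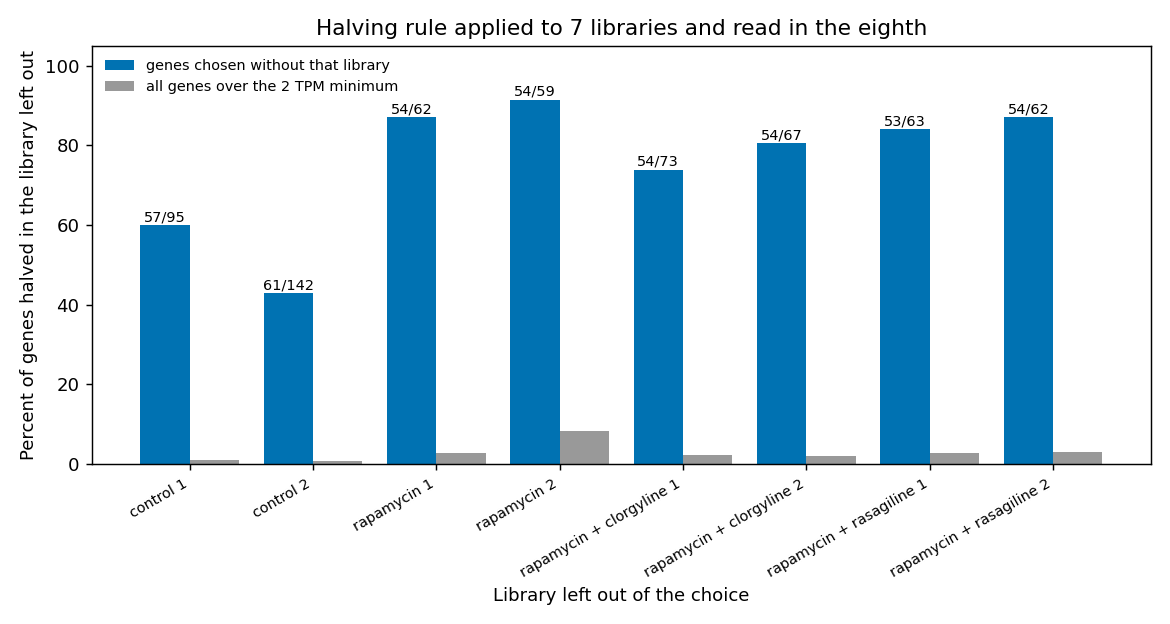
Percent of genes that met the 50% threshold in the library left out, for genes chosen on the other 7 libraries (blue, with counts) and for all genes over the 2 TPM minimum (grey). Blue bars reach 74.0% to 91.5% for the treated tumours and 60.0% and 43.0% for the controls, against grey bars of 0.723% to 8.25%. Each left-out library was compared with libraries that entered the choice, so the gap between blue and grey is partly set by the choice.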

How the data were processed

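The authors deposited 1 table of TPM values with a column for each of 8 tumours. Per the submitters' processing notes, the rat build was rn6 and the tools included bedtools, DESeq2, SAMtools 0.1.18 and STAR 2.4.0f1, with no roles stated. How TPM was computed, with which annotation, and whether host reads were removed is not given in the sources used here. Since TPM keeps no sequencing depth, no counting interval was computed.

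Groups came from the sample titles. The rule was applied to the deposited values in Python 3.11.15. For tests, TPM was transformed to log2(TPM + 1), and limma 3.58.1 in R 4.3.3 fitted 4 group means with a variance trend to the 13686 genes at 1 TPM or more in at least 2 libraries, with 4 residual degrees of freedom. Tests were two-sided with a threshold of 0.05 on the Benjamini-Hochberg adjusted p. The fit and the rule were tested on simulated data. Fold changes on this scale understate those of weak genes. Plots used matplotlib 3.10.9.

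The genes and lists were chosen with earlier results of these data known. The rule for named genes needs symbols. As 0 of 23918 identifiers were found among 47357 RefSeq genes (GRCr8), 2 identifiers are named, the gene with the highest control level and that with the lowest treated share among genes with a lower control of at least 5 TPM. The 26 gene lists and 11 promoter motifs prepared could not be applied.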

Additional observations from a re-analysis of the deposited data

How the results depend on the processing

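Several counts moved with the settings. The number of genes chosen was 32 with a lower control of at least 10 TPM, 20 with the highest treated tumour at most 1/3 of the lower control, 151 at most 2/3, 82 after quantile normalization (53 of the 54 among them), 172 on group means (all 54 among them), and 59 to 142 when single libraries were left out. It was 64 and 42 with a lower control of at least 1 or 5 TPM and 70 after median rescaling (50 of the 54 among them). Median rescaling took the median log2 difference of all genes from control from 0.10 to -0.004.

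Genes of the set called between treated groups in limma numbered 0 to 5 for clorgyline against rapamycin, 0 to 2 for rasagiline against rapamycin and 0 between the combinations with single libraries left out, and 0 under all other settings tried.

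Over all genes, calls for the mean of the 3 treated groups against control, 334 with the settings described, were 22 with no filter, 137 without a variance trend and 0 to 1317 with single libraries left out. Clorgyline against rapamycin gave 1 call at a pseudocount of 0.1 TPM and 0 to 441 in the omissions. Rasagiline against rapamycin gave 5 at a pseudocount of 0.1 TPM, 6 at 5 TPM, 0 with no filter, 1 after quantile normalization, 1 without a variance trend and 0 to 405 in the omissions. Between the combinations there were 6 calls at a pseudocount of 5 TPM, 0 with no filter and 0 to 4 in the omissions.

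The alternatives for gene lists were not run, for want of symbols. No paired analysis was possible because the titles carry only codes of a letter and a number, whose meaning is not given, and no 2 groups share more than 1 letter or 1 number of these codes. Depth was unknown, so values below 1 TPM have no stated precision.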
